A study of Mus musculus with 2 samples.

Results

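The genes described here are Trp53, which encodes the transcription factor p53, and 9 of its target genes, Cdkn1a, Mdm2, Ccng1, Trp53inp1, Sesn2, Bax, Zmat3, Eda2r and Phlda3. They were found by symbol among the features of the RNA table, and all 10 of 10 were present among its 32293 genes. RNA and open chromatin (ATAC, which counts cuts of a transposase in accessible DNA) were measured in the same nuclei by 10x Multiome. The cells were tdTomato+ and came from femurs of Prrx1-cre; R26R(tdTomato/+) mice, 21 days after birth. Males and females of the litter were pooled, the distal growth plates had been removed, and 15000 nuclei were loaded. Prrx1-cre acts in limb mesenchyme, so tdTomato marks cells of the skeletal lineage, and no group of the series carried another allele or a treatment. There was 1 RNA library and 1 ATAC library, so no difference below was tested between animals, and the intervals cover counting error only.

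p53 is held at a low level by MDM2, the ubiquitin ligase that targets it for degradation, and is stabilised when DNA damage, ribosomal stress or oncogenes act on a cell. It then binds response elements and raises genes that stop the cell cycle, repair DNA, change metabolism or start apoptosis, and Mdm2 itself is among them, which closes a feedback loop. In bone, loss of p53 is a recurrent event in osteosarcoma. Since p53 is controlled mainly at the level of the protein, the RNA of Trp53 and the RNA of its targets are separate readouts.

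Barcodes with at least 500 UMIs and 1000 ATAC counts gave 4663 nuclei with 13678094 UMIs of genes outside the mitochondrial genome (non-mt UMIs) and a median of 1625 per nucleus. No limit was set on the share of UMIs from mitochondrial genes (mt- share), whose median was 16.9%. Nuclei were put into classes by the summed UMIs of marker lists, and 2230 nuclei (47.8%) passed no gate. Levels are given as counts per 1000000 non-mt UMIs (CPM) summed over a class, with exact Poisson 95% intervals. Barcodes of 100 to 400 UMIs with fewer than 500 ATAC counts (62603 barcodes) gave the level of free RNA, which made up about 7.70% of the non-mt UMIs in nuclei if each held the median of 226. The RNA Gm42418 took 60.3% of all UMIs in the free RNA barcodes and 24.7% of all UMIs in nuclei, mitochondrial UMIs included. A gene was called where its ratio reached 2-fold and the UMIs of both sides came to 20 or more.

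The nuclei set against all other stromal nuclei were those with at least 2 UMIs each of Col10a1 (collagen X, the hallmark of hypertrophic chondrocytes) and Mmp13 (a collagenase of late hypertrophic chondrocytes and osteoblasts), whose sum reached 0.3% of the non-mt UMIs. They were 161 of 4663 nuclei (3.45%), with 737544 non-mt UMIs, a median of 2147 per nucleus and a median mt- share of 16.6%. The other gated stromal nuclei (chondrocyte, osteoblast, osteocyte, reticular, mural, tenocyte or synovial, and periosteal) were 1501, with 6403572 non-mt UMIs, a median of 2305 and an mt- share of 14.2%. Gated blood nuclei (erythroid, granulocyte, B-lymphoid, and macrophage or osteoclast) were 654, with 1609436 non-mt UMIs, a median of 1561.5 and an mt- share of 15.8%. Blood is not of the skeletal lineage, and how these nuclei came to be among the sorted cells was not tested.

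Whether the gate held hypertrophic chondrocytes was checked on genes that it did not use. Free RNA alone held Col10a1 and Mmp13 at 0.253% of its non-mt UMIs, just under the 0.3% of the gate. Of 9 further genes of hypertrophic chondrocytes, 6 reached at least 2 times their free RNA level, among them Runx2 at 979 CPM (140 in free RNA) and Acan at 1482 CPM (529 in free RNA), whereas Sox9 at 107 CPM and Col2a1 at 7117 CPM did not (119 and 4616 in free RNA). In other gated stromal nuclei, Runx2 (755 CPM), Alpl (292 CPM, 109 in free RNA) and Pth1r (502 CPM, 107 in free RNA) also reached 2 times free RNA. Acan (884 CPM), Ibsp (703 CPM) and Ihh (29.4 CPM) did not. The gated nuclei were divided by which of the 2 gate genes was higher. In 48 of them Col10a1 was above Mmp13, and these had Acan at 2637 CPM, Col2a1 at 12645 CPM and Ihh, the hedgehog ligand of prehypertrophic cartilage, at 115 CPM. In the other 113 Mmp13 was at least as high as Col10a1, and these had Acan at 294 CPM, Col2a1 at 1430 CPM, Sox9 at 41.3 CPM and Ihh at 8.25 CPM, with Runx2 at 1147 CPM and Lepr, the marker of perivascular reticular cells, at 399 CPM. Col10a1 itself was at 1367 CPM in these 113 nuclei (1979 in free RNA) and Mmp13 at 6235 CPM (547 in free RNA). Col10a1 and the cartilage genes of this part thus lay below free RNA, so the group is called by its rule, Col10a1/Mmp13 nuclei, with Col10a1-led and Mmp13-led parts. By other marker lists, 85 of the 161 passed no other gate, 42 passed the reticular gate, 19 the osteocyte gate, 10 the osteoblast gate and 4 the chondrocyte gate. Those 4, with a median of 21724 non-mt UMIs, held 2934 of the 5249 Col2a1 UMIs of the 161 nuclei. They also held 508 of 1093 for Acan and 25 of 46 for Ihh, so much of the cartilage RNA came from them. Blood markers were below free RNA: none of the 11 erythroid, 11 granulocyte, 9 B-lymphoid or 11 macrophage markers reached 2 times free RNA, and the erythroid list summed to 792 CPM (2961 in free RNA). A list of 5 general blood genes summed to 564 CPM (255 in free RNA) with 1 of the 5 above 2 times free RNA, and Ptprc, the pan-leukocyte gene CD45, was at 13.6 CPM (29.2 in free RNA). In the whole series 370 nuclei had at least 2 UMIs of both gate genes. The 30 nuclei just inside the gate (0.3 to 0.36%) had Cdkn1a at 259 CPM and Trp53inp1 at 69.7 CPM, against 122 and 18.7 CPM in the 36 just outside (0.24 to 0.3%). These levels rest on 200949 non-mt UMIs inside and 106946 outside, and the 18.7 CPM of Trp53inp1 came from fewer than 3 UMIs. Whether the levels change at the cut was not tested.

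Col10a1/Mmp13 nuclei held more RNA of p53 and of part of its targets than the other stromal nuclei summed. Osteoblast nuclei gave 2660920 of the 6403572 non-mt UMIs of that sum, so it is weighted toward them. Trp53, Ccng1 and Trp53inp1 were above 2-fold, Cdkn1a and Mdm2 lay between 1.5-fold and 2-fold, and Sesn2, Bax, Zmat3 and Phlda3 had intervals that included no difference. The 10 genes summed to 793 CPM in Col10a1/Mmp13 nuclei, against 438 CPM in other stromal nuclei (218 CPM in free RNA). Of the 9 genes with enough UMIs, 3 were called higher and 0 lower, where 8.55% of all 11760 genes tested were called higher and 6.16% lower. The median log2 ratio was 0.73 over the 9 genes and 0.20 over all genes tested.

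**Figure D1:**
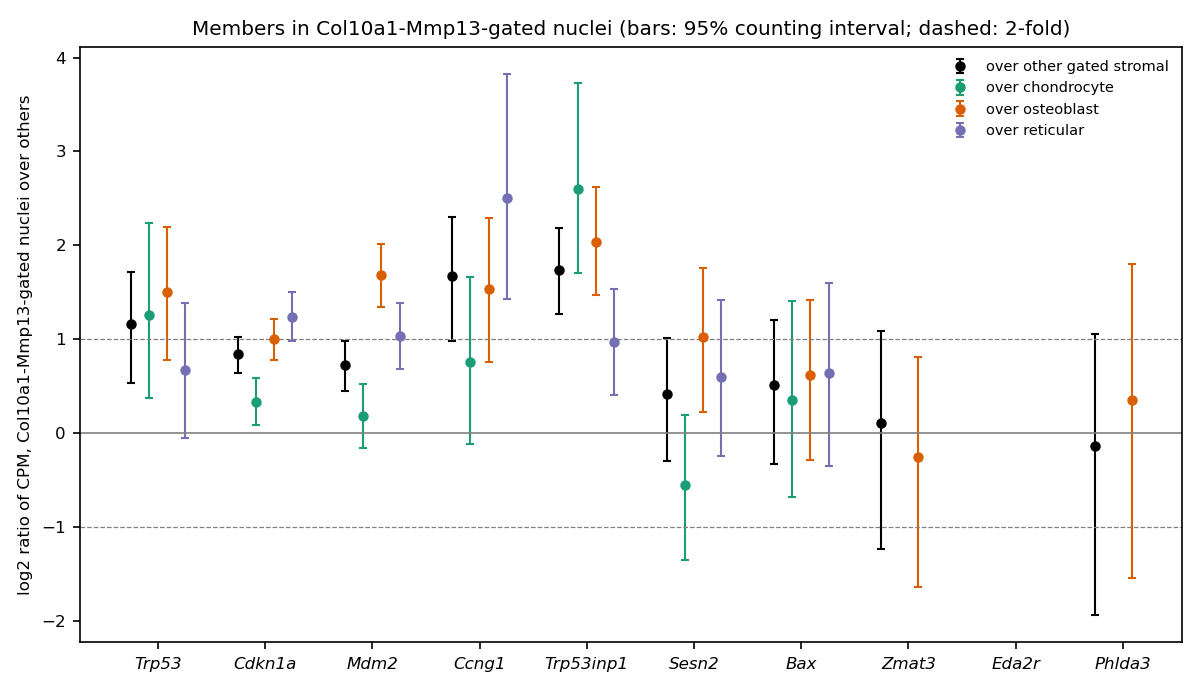
Log2 ratio of CPM in Col10a1/Mmp13 nuclei over other gated stromal nuclei and over chondrocyte, osteoblast and reticular nuclei, for the genes with at least 20 UMIs over both sides, with 95% counting intervals and dashed lines at 2-fold. Over other stromal nuclei, Trp53 (1.16), Ccng1 (1.67) and Trp53inp1 (1.74) lay above the 2-fold line.

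Trp53 itself (ENSMUSG00000059552, mm10 chr11:69580359-69591873, plus strand) had 32 UMIs in Col10a1/Mmp13 nuclei, a level of 43.4 CPM (29.7 to 61.2), against 126 UMIs and 19.7 CPM (16.4 to 23.4) in other stromal nuclei, a log2 ratio of 1.16 (0.53 to 1.71). Free RNA held it at 8.07 CPM, below both. Its UMIs came from 21 of the 161 nuclei, and the 5 richest held 40.6% of them. Without the richest nucleus of each side the log2 ratio was 0.98, and with mt- limits of 10% and 20% it was 0.29 and 0.81, all under the 2-fold line. Wrap53, which lies antisense to the start of Trp53, had 4 UMIs against 28.

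Mdm2, the ubiquitin ligase of the feedback loop (ENSMUSG00000020184, chr10:117688875-117710758, minus strand), had 141 UMIs and 191 CPM (161 to 225) in Col10a1/Mmp13 nuclei, against 742 UMIs and 116 CPM (108 to 125) in other stromal nuclei. Its log2 ratio of 0.73 (0.45 to 0.98) was above 0 but below 2-fold. Mdm2 UMIs were seen in 45 of the 161 nuclei, the richest with 22 of them, and the 5 richest held 41.8%. Without the richest nucleus of each side the log2 ratio was 0.74.

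Of the 2 targets that act on the cell cycle, Cdkn1a (ENSMUSG00000023067, chr17:29090976-29100727, plus strand), which encodes p21, the inhibitor of cyclin-dependent kinases, had 271 UMIs and 367 CPM (325 to 414) in Col10a1/Mmp13 nuclei, against 1318 UMIs and 206 CPM (195 to 217) in other stromal nuclei. The log2 ratio was 0.84 (0.64 to 1.03), again above 0 and below 2-fold. A UMI was seen in 69 of the 161 nuclei, and the 5 richest held 40.2%. Ccng1 (ENSMUSG00000020326, chr11:40748552-40755311, minus strand), cyclin G1, an early p53 target that takes part in the control of MDM2 by phosphatase 2A, had 28 UMIs and 38.0 CPM (25.2 to 54.9) against 77 UMIs and 12.02 CPM (9.49 to 15.03). Its log2 ratio was 1.67 (0.98 to 2.30), and the level in other stromal nuclei was no higher than the 12.1 CPM of free RNA. No nucleus held more than 3 of its UMIs, and the log2 ratio without the richest nucleus of each side was 1.65.

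Among the targets tied to stress and cell death, Trp53inp1 (ENSMUSG00000028211, chr4:11156431-11174379, plus strand), a nuclear protein of the stress response that also acts in autophagy, had the largest ratio of the 9 genes. It reached 57 UMIs and 77.3 CPM (58.5 to 100.1) in Col10a1/Mmp13 nuclei, against 149 UMIs and 23.3 CPM (19.7 to 27.3) in other stromal nuclei, a log2 ratio of 1.74 (1.27 to 2.18). Free RNA held it at 29.1 CPM, above the level of other stromal nuclei, and only the Col10a1/Mmp13 side stood above free RNA. The UMIs lay in 27 nuclei, the 5 richest held 50.9%, and without the richest nucleus of each side the log2 ratio was 1.60. It was 0.99 with the gate at 0.1% and 0.97 against reticular nuclei alone, just under 2-fold. Sesn2 (sestrin 2, an inhibitor of mTORC1 signalling) had 32.5 CPM against 24.8 CPM, a log2 ratio of 0.42 (-0.29 to 1.02). Bax (the pore-forming protein of the mitochondrial path to apoptosis) had 24.4 CPM against 17.5 CPM, a log2 ratio of 0.51 (-0.33 to 1.21).

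The last 3 targets were close to the limit of detection. Zmat3, a zinc-finger protein that binds RNA, had 8 UMIs and 10.8 CPM in Col10a1/Mmp13 nuclei, against 68 UMIs and 10.6 CPM in other stromal nuclei, a log2 ratio of 0.11, and its UMIs in the gate came from 6 nuclei. Phlda3, an inhibitor of AKT signalling, had 5 UMIs against 52, or 6.78 CPM against 8.12 CPM. Eda2r, the receptor of ectodysplasin A2, had 1 UMI against 3 and 14 UMIs in all nuclei, and no ratio is given for it.

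Cdkn1a and Mdm2 were highest in the nuclei with the most RNA of the gate genes. In the 27 nuclei whose Col10a1 and Mmp13 sum reached 1%, Cdkn1a was at 652 CPM against 206 CPM in other stromal nuclei, a log2 ratio of 1.67 (1.41 to 1.91), and Mdm2 was at 356 CPM against 116 CPM, a log2 ratio of 1.63 (1.27 to 1.95). In the 96 nuclei below 0.6% the same genes were at 226 CPM and 123 CPM, with log2 ratios of 0.14 (-0.19 to 0.45) and 0.10 (-0.36 to 0.51). The 38 nuclei between 0.6% and 1% had Cdkn1a at 270 CPM (183 to 383, 31 UMIs) and Mdm2 at 87.0 CPM (41.7 to 160, 10 UMIs), so Mdm2 was no higher there than in the nuclei below 0.6%. Trp53inp1 was at 51.5 CPM in the nuclei of 1% or more, a log2 ratio of 1.20, at 113 CPM between 0.6% and 1% (13 UMIs), and at 82.2 CPM in those below 0.6%, a log2 ratio of 1.84. In the nuclei of 1% or more 7 of 9 genes were called higher, namely Trp53 (64.3 CPM), Cdkn1a, Mdm2, Ccng1 (55.7 CPM), Trp53inp1, Bax (42.9 CPM) and Zmat3 (21.4 CPM, 5 UMIs), where 19.3% of all genes were. In those below 0.6% Trp53, Ccng1 and Trp53inp1 were called, where 10.9% of all genes were. These bands differ in depth, with a median of 6000 non-mt UMIs per nucleus at 1% or more and 1718.5 below 0.6%, and its part in the result was not tested.

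**Figure D2:**
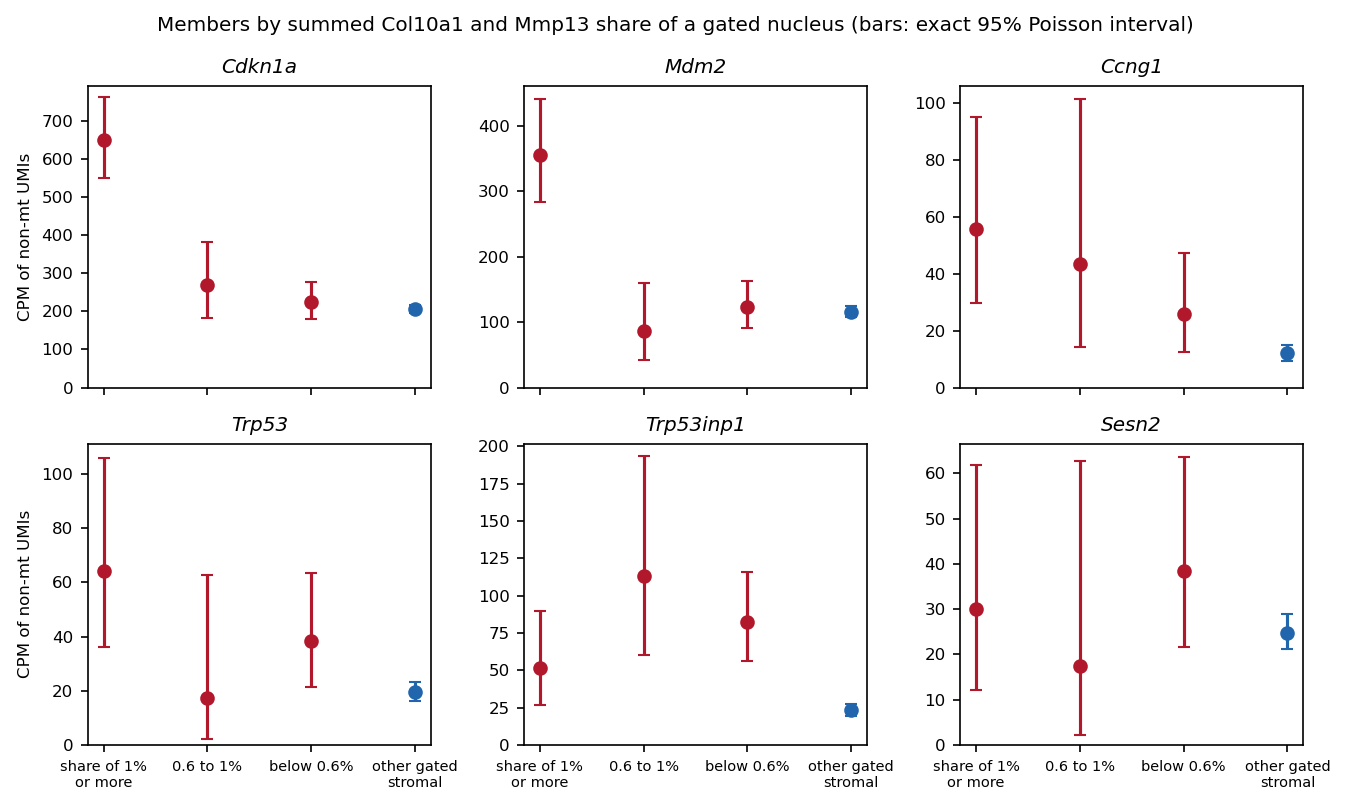
CPM of Cdkn1a, Mdm2, Ccng1, Trp53, Trp53inp1 and Sesn2 in Col10a1/Mmp13 nuclei by the summed share of the gate genes, beside other gated stromal nuclei, with exact 95% Poisson intervals. Cdkn1a reached 652 CPM and Mdm2 356 CPM in the nuclei of 1% or more, whereas Trp53inp1 was lower there (51.5 CPM) than below 0.6% (82.2 CPM).

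In each part of the gate, 5 of 9 genes had intervals above 0 over other stromal nuclei. Cdkn1a, Ccng1 and Trp53inp1 had log2 ratios of 0.74, 1.78 and 1.43 in the Col10a1-led and 0.94, 1.62 and 2.02 in the Mmp13-led part. Trp53 was at 37.4 and 49.5 CPM in the same order, against 19.7 CPM in other stromal nuclei. Mdm2 was also above the 116 CPM of other stromal nuclei in both parts. None of the 6 genes with enough UMIs was called between Col10a1-led and Mmp13-led nuclei, where 8.27% of all genes were called higher in the Col10a1-led and 8.94% lower. Cdkn1a was at 342 CPM in Col10a1-led and 393 CPM in Mmp13-led nuclei, and Trp53inp1 at 61.5 CPM and 93.5 CPM. Mdm2 was at 158 CPM and 226 CPM, a log2 ratio of -0.51 (-1.02 to -0.02). The Mmp13-led nuclei were also set against reticular nuclei and the Col10a1-led nuclei against chondrocyte nuclei, a choice of pairs made after the data were seen. Mmp13-led nuclei had 4 of 7 genes called higher than reticular nuclei, where 6.86% of all genes were. Of these Cdkn1a was at 393 CPM against 156 CPM, Mdm2 at 226 CPM against 93.3 CPM, Ccng1 at 35.8 CPM against 6.46 CPM, and Trp53inp1 at 93.5 CPM against 39.5 CPM. Col10a1-led nuclei had 2 of 7 genes called higher than chondrocyte nuclei, where 11.8% were: Trp53inp1 at 61.5 CPM against 12.3 CPM, a log2 ratio of 2.29 (1.23 to 3.50), and Trp53 at 37.4 CPM against 17.9 CPM, with an interval that included no difference (-0.08 to 2.19). Over all chondrocyte nuclei, the Col10a1/Mmp13 nuclei together differed little in Cdkn1a (log2 ratio 0.33) and Mdm2 (0.18), while Trp53inp1 (2.60) and Trp53 (1.25) were called, where 16.3% of all genes were. The 10 Col10a1-led nuclei of 1% or more had Cdkn1a at 524 CPM and Mdm2 at 297 CPM, and the 17 Mmp13-led ones 861 CPM and 453 CPM. The 10 held 144951 non-mt UMIs together. A single one of them, with 19280, gave 27 UMIs of Cdkn1a and 22 of Mdm2, so their levels rest in large part on this nucleus.

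The Col10a1/Mmp13 nucleus with the most UMIs of Cdkn1a and of Mdm2, which had 19280 non-mt UMIs, 390 of Col10a1 and 36 of Mmp13, held 27 UMIs of Cdkn1a, 22 of Mdm2 and 7 of Trp53inp1, but none of Trp53. To compare shares of nuclei across depths, each nucleus was thinned to 500 non-mt UMIs, which left out 1 Col10a1/Mmp13, 13 other stromal and 14 blood nuclei. Cdkn1a was then seen in 18.1% (12.5 to 24.98, exact Clopper-Pearson) of Col10a1/Mmp13 nuclei, in 7.53% (6.24 to 8.99) of other stromal nuclei and in 4.38% (2.93 to 6.26) of blood nuclei. At full depth the shares were 42.9%, 34.98% and 12.997%. At least 2 of the 10 genes were seen in the same thinned nucleus in 5% (2.18 to 9.61) of Col10a1/Mmp13 nuclei, against 0.941% (0.515 to 1.57) of other stromal and 1.88% (0.973 to 3.25) of blood nuclei. The thinned shares of Mdm2 were 6.25% (3.04 to 11.2), against 4.10% (3.15 to 5.24) in other stromal and 4.06% (2.67 to 5.90) in blood nuclei, so a difference in Mdm2 was not detectable at this depth. Nor was one in the 3 genes called 2-fold higher, whose intervals overlapped. Trp53 was seen in 1.88% (0.388 to 5.38) of Col10a1/Mmp13 and 0.672% (0.323 to 1.23) of other stromal nuclei, Ccng1 in 0.625% (0.0158 to 3.43) and 0.336% (0.109 to 0.782), and Trp53inp1 in 3.12% (1.02 to 7.14) and 1.21% (0.718 to 1.91).

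Across the 12 classes each gene had its own order of levels. Cdkn1a was high over the skeletal classes and low in blood. After the 367 CPM of the Col10a1/Mmp13 nuclei came osteocyte (316 CPM), tenocyte or synovial (308 CPM) and chondrocyte nuclei (292 CPM). The intervals of these classes, the Col10a1/Mmp13 nuclei included, overlapped one another, so their order was not resolved. Osteoblast (184 CPM), periosteal (180 CPM), reticular (156 CPM) and mural nuclei (109 CPM) followed. The 4 blood classes ran from 46.0 CPM in erythroid to 70.9 CPM in B-lymphoid nuclei, all below the 106 CPM of free RNA. In all other stromal over blood nuclei Cdkn1a was at 206 CPM against 61.5 CPM, a log2 ratio of 1.74 (1.45 to 2.05). Trp53 ran the opposite way, at 19.7 CPM in stromal against 50.3 CPM in blood nuclei, a log2 ratio of -1.36 (-1.77 to -0.93). It was highest in B-lymphoid (87.8 CPM) and erythroid nuclei (71.2 CPM), then in Col10a1/Mmp13 nuclei (43.4 CPM), and the intervals of neighbours in this order overlapped. Zmat3 at 10.6 CPM against 4.97 CPM and Phlda3 at 8.12 CPM against 1.24 CPM were, with Cdkn1a, the 3 genes called higher in stromal than in blood nuclei, where 18.7% of all genes were called higher and 25.6% lower. Phlda3 was highest in mural nuclei, at 23.7 CPM from 7 UMIs.

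**Figure D3:**
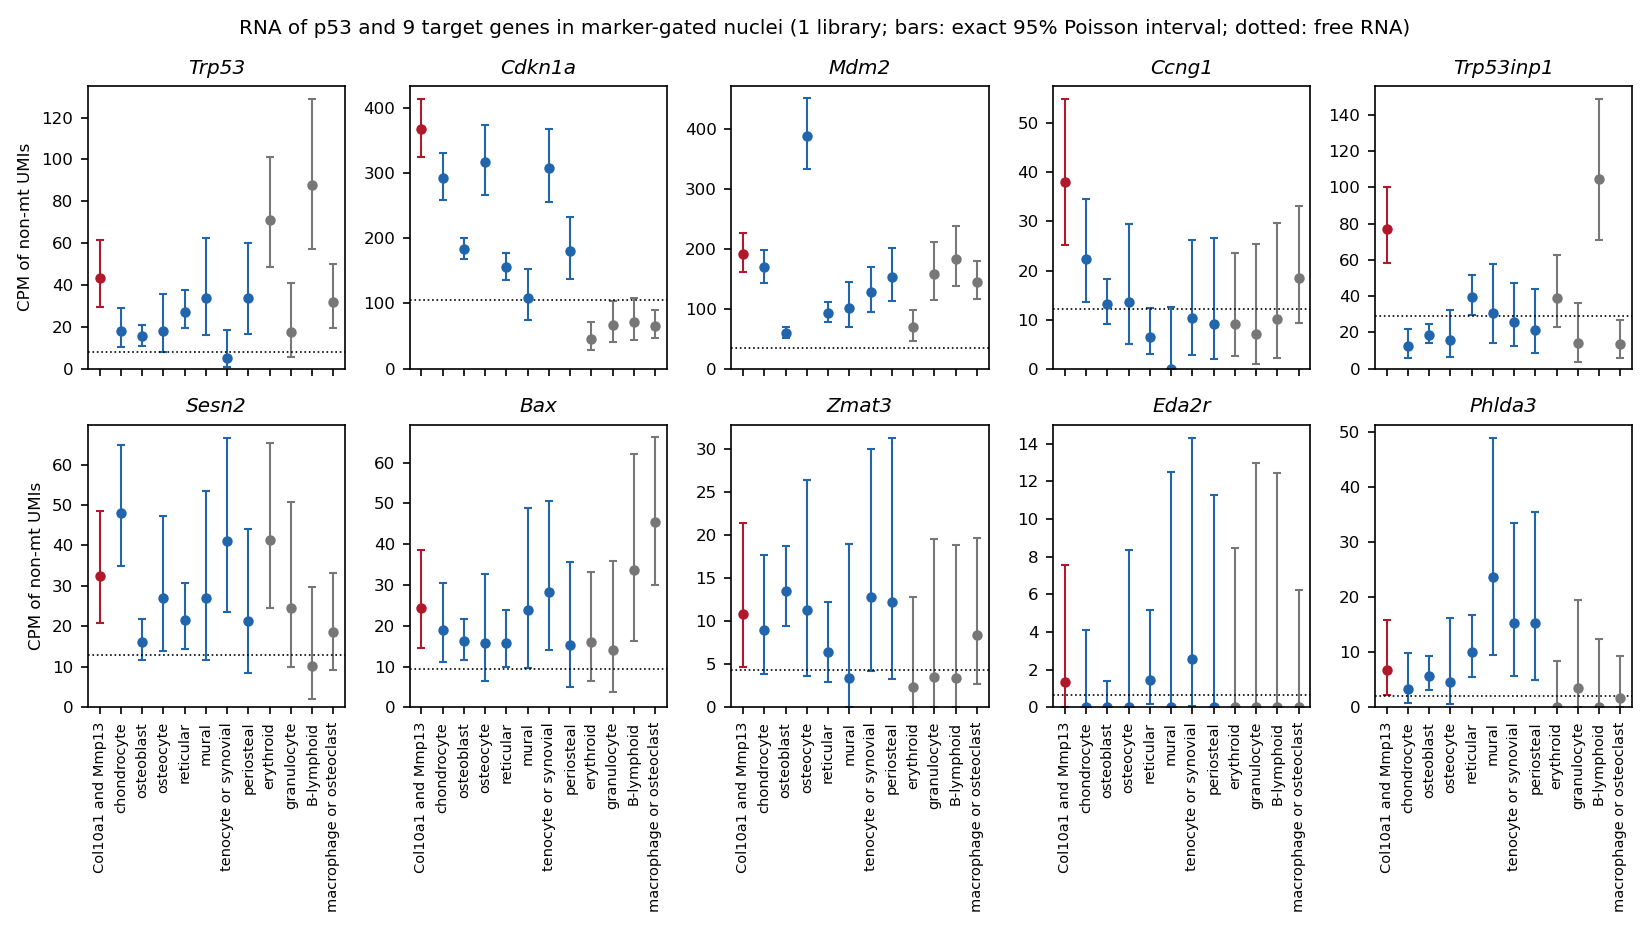
CPM of the 10 genes in the 12 marker-gated classes, with exact 95% Poisson intervals and free RNA as a dotted line. Cdkn1a was highest in Col10a1/Mmp13 nuclei (367 CPM), with an interval overlapping those of osteocyte, tenocyte or synovial and chondrocyte nuclei. It was lowest in the 4 blood classes (46.0 to 70.9 CPM), while Trp53 was highest in B-lymphoid nuclei (87.8 CPM).

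Mdm2 had another order. Osteocyte nuclei led with 388 CPM (333 to 451), but 105 of their 172 UMIs came from 1 nucleus, and without it the class was at 155 CPM. Col10a1/Mmp13 (191 CPM), B-lymphoid (182 CPM), chondrocyte (169 CPM), granulocyte (158 CPM), periosteal (152 CPM) and macrophage or osteoclast nuclei (145 CPM) had overlapping intervals. Osteoblast nuclei were lowest at 59.8 CPM (50.8 to 69.8), against 162 CPM in the rest of the stromal nuclei, the Col10a1/Mmp13 nuclei included, a log2 ratio of -1.43 (-1.69 to -1.19), the 1 gene of 9 called lower there, where 28.1% of all genes were. Against osteoblast nuclei, 6 of 9 genes were called higher in Col10a1/Mmp13 nuclei, where 26.9% of all genes were, and against reticular nuclei 3 of 7, namely Ccng1, Cdkn1a and Mdm2, where 8.07% were.

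Trp53inp1 was at 105 CPM in B-lymphoid and 77.3 CPM in Col10a1/Mmp13 nuclei with overlapping intervals, followed by reticular (39.5 CPM) and erythroid nuclei (39.1 CPM), and was at 12.3 CPM in chondrocyte nuclei. Ccng1 was at 38.0 CPM in Col10a1/Mmp13 nuclei, 22.4 CPM in chondrocyte and 18.5 CPM in macrophage or osteoclast nuclei, whose intervals overlapped, and mural nuclei had 0 UMIs, which allows up to 10.2 CPM. Sesn2 was highest in chondrocyte nuclei at 48.1 CPM against 22.4 CPM in the rest of the stromal nuclei, a log2 ratio of 1.11 (0.57 to 1.61), the 1 gene of 9 called higher there, where 14.4% of all genes were. Bax was highest in macrophage or osteoclast nuclei at 45.5 CPM, against 20.7 CPM in the other blood nuclei, a log2 ratio of 1.13 (0.26 to 2.03), where 18.7% of all genes were called higher. Over blood nuclei, Col10a1/Mmp13 nuclei were called higher in 3 of 7 genes, Cdkn1a (log2 ratio 2.57), Ccng1 (1.60) and Trp53inp1 (1.05), where 15.4% of all genes were called higher and 24.5% lower.

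The genes whose levels over the 12 classes were most like that of Cdkn1a, among 5594 genes searched, were Slc39a14 (Pearson r 0.94), Tiam2 (0.94), Sec24d (0.92) and Adgra3 (0.91). For Mdm2 they were Elk3 (0.80), Pfkfb3 (0.75), Usp53 (0.73) and Cd44 (0.72), and for Ccng1 Gnl1 (0.82), Shb (0.81), Cdc37 (0.77) and Tomm6 (0.76). None of these 12 genes is one of the 9 targets. The search took only genes with at least 200 UMIs over the 12 classes, so Ccng1, Bax, Zmat3, Eda2r and Phlda3 could not appear. These are correlations of log2(CPM + 10) over 12 classes of 1 library, which share their depth and free RNA, and are given as a description.

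The mt- share, often taken as a sign of stressed or damaged nuclei, was set against the p53 targets within classes, by dividing each class at its median mt- share. In Col10a1/Mmp13 nuclei 0 of 6 genes were called on the side above the median, where 3.08% of all genes were called higher and 8.25% lower. Cdkn1a was at 348 CPM above the median and 387 CPM below it, a log2 ratio of -0.15 (-0.51 to 0.20), Mdm2 at 201 CPM and 181 CPM (log2 ratio 0.15, -0.35 to 0.65), and Trp53inp1 at 67.0 CPM and 87.8 CPM (-0.38, -1.21 to 0.41). Trp53 was at 53.6 CPM and 32.9 CPM, with an interval that included no difference (-0.40 to 1.87).

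In other stromal nuclei the 2 sides were close. Cdkn1a was at 204 CPM above the median and 207 CPM below it (log2 ratio -0.02, -0.18 to 0.14), and Mdm2 at 117 CPM and 115 CPM (0.03, -0.18 to 0.24). The 1 gene of 9 called was Phlda3, at 4.002 CPM above the median and 11.7 CPM below it, a log2 ratio of -1.51 (-2.62 to -0.59), where 6.41% of all genes were called lower. The sum of the 10 genes stayed between 417 and 475 CPM over 6 bins of the mt- share.

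**Figure D4:**
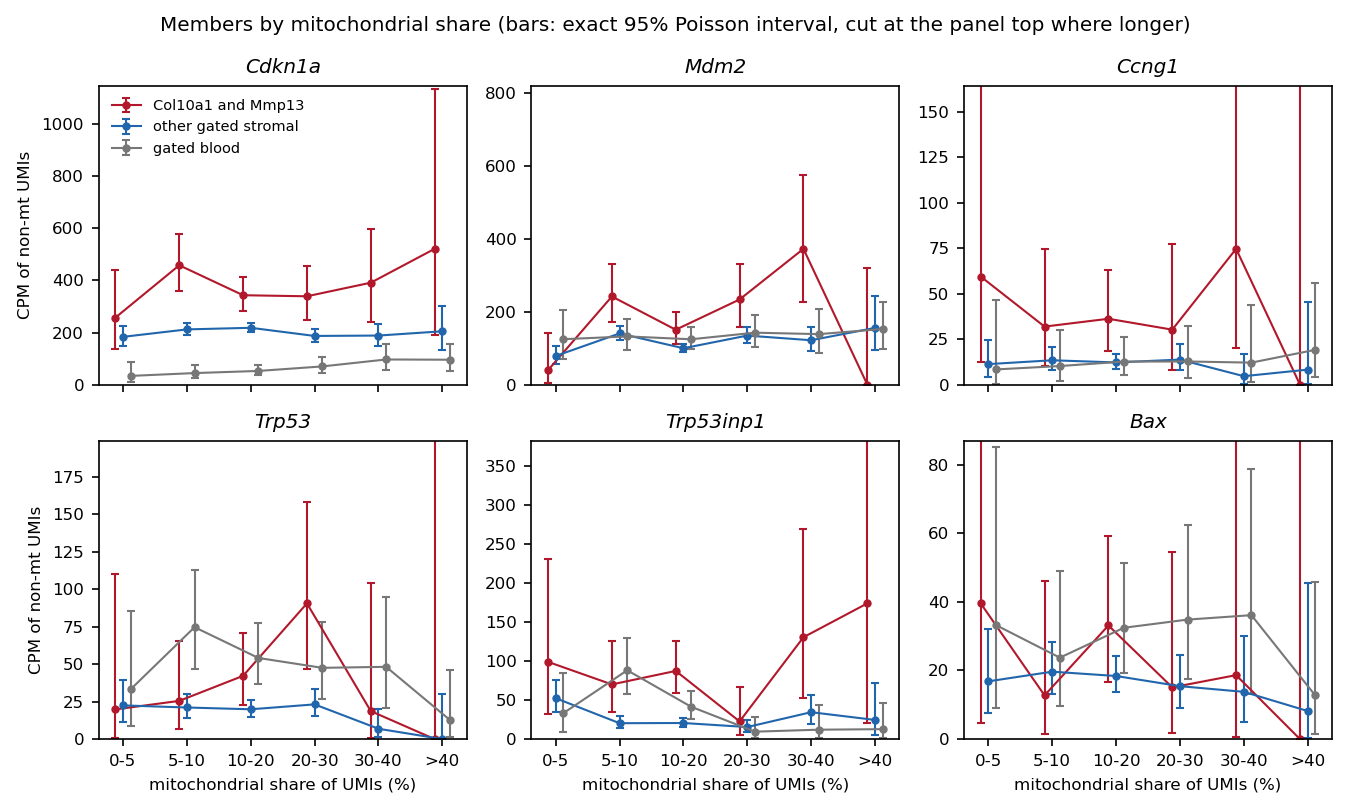
CPM of Cdkn1a, Mdm2, Ccng1, Trp53, Trp53inp1 and Bax by bins of the mt- share (% of all UMIs), in Col10a1/Mmp13 nuclei, other gated stromal nuclei and gated blood nuclei, with exact 95% Poisson intervals, cut at the panel top where longer. Cdkn1a stayed between 183 and 218 CPM over the 6 bins in other stromal nuclei and lay between 257 and 522 CPM in Col10a1/Mmp13 nuclei.

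Over the same bins Cdkn1a in Col10a1/Mmp13 nuclei was at 257, 458, 343, 339, 391 and 522 CPM from the lowest mt- share (up to 5%) to the highest (above 40%), with 25, 29, 44, 34, 21 and 8 nuclei. All 6 values were above those of other stromal nuclei in the same bin, which were 183, 212, 218, 187, 188 and 205 CPM. In blood nuclei the values were 33.2, 44.1, 52.3, 69.7, 96.3 and 95.4 CPM, all below the 106 CPM of free RNA, and whether free RNA took part in that order was not tested. Trp53inp1 in blood nuclei was at 10.99 CPM above the median mt- share against 64.5 CPM below it, a log2 ratio of -2.49 (-3.76 to -1.52), the 1 gene of 7 called there, where 12.2% of all genes were called lower. B-lymphoid nuclei, which held the most Trp53inp1, had a median mt- share of 11.6%, and macrophage or osteoclast nuclei, at 13.5 CPM, one of 26.4%. Whether this mix of classes took part in the Trp53inp1 difference was not tested. In osteoblast nuclei Mdm2 was the 1 gene of 8 called, at 97.3 CPM above the median and 43.3 CPM below it, a log2 ratio of 1.17 (0.70 to 1.64), where 1.72% of all genes were called higher. In chondrocyte nuclei Ccng1 had 1 UMI above the median and 19 below it, where 10.7% of all genes were called lower.

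Over all nuclei, in which classes of different mt- share are mixed, Cdkn1a was at 160 CPM above the median mt- share and 195 CPM below it, a log2 ratio of -0.29 (-0.40 to -0.17), Mdm2 at 122 CPM and 110 CPM (0.16, 0.01 to 0.30), and Trp53inp1 at 21.0 CPM and 34.1 CPM (-0.70, -1.02 to -0.39). Phlda3, at 4.33 CPM and 10.2 CPM, was the 1 gene of 9 called lower, where 5.06% of all genes were, and none was called higher, where 1.52% were. In nuclei that passed no gate, Bax (10.8 CPM and 23.3 CPM) and Phlda3 (4.52 CPM and 13.2 CPM) were called lower, where 3.62% were.

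Other genes of the pathway were taken from lists. Of 36 other p53 targets, 29 had enough UMIs, and 6 were called higher and 0 lower in Col10a1/Mmp13 nuclei over other stromal nuclei, where 8.55% of all genes were called higher and 6.16% lower. Their median log2 ratio was 0.59 (0.20 over all genes tested). Plk2, a kinase of the centrosome cycle, was at 62.4 CPM against 14.99 CPM, a log2 ratio of 2.06 (1.52 to 2.58). Gadd45a, a stress sensor that acts in growth arrest and repair, was at 82.7 CPM against 25.1 CPM (1.73, 1.27 to 2.15). Rrm2b, the p53-inducible subunit of ribonucleotide reductase, was at 35.3 CPM against 13.6 CPM (1.39), and Xpc, which recognises damage in nucleotide excision repair, at 23.0 CPM against 9.53 CPM (1.30). The remaining 2 called were Apaf1, the core of the apoptosome, at 88.1 CPM against 37.2 CPM, and Tnfrsf10b, a death receptor, with 6 UMIs against 24. Btg2, an antiproliferative target, was at 232 CPM against 158 CPM, under 2-fold. Plk2 and Gadd45a were at 77.0 and 102 CPM in Mmp13-led nuclei, against 18.7 and 52.4 CPM in reticular nuclei, and at 48.1 and 64.2 CPM in Col10a1-led nuclei, against 11.2 and 25.7 CPM in chondrocyte nuclei.

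Of 20 regulators and relatives of p53, 16 had enough UMIs, 1 was called higher and 0 lower, beside 8.55% and 6.16% of all genes, and the median log2 ratio was 0.15 (0.20 over all genes). The gene called was Ppp1r13b, which encodes ASPP1, a cofactor that steers p53 toward apoptosis genes, at 47.5 CPM against 18.1 CPM, and Trp53bp1, a repair protein of double-strand breaks, was at 67.8 CPM against 37.9 CPM. Mdm4, the partner of MDM2, was at 63.7 CPM against 59.2 CPM. Of 5 other CDK inhibitors 4 had enough UMIs and Cdkn2c was called higher with 8 UMIs against 32, with an interval that included no difference (-0.21 to 2.27), and 8.55% of all genes were called higher. Cdkn1c, p57, was at 206 CPM against 150 CPM, a log2 ratio of 0.47 (0.21 to 0.71). Of 14 cell cycle genes 13 had enough UMIs, and Cdk1 was called higher with 9 UMIs against 33 (-0.01 to 2.34), again beside 8.55% of all genes, with a median log2 ratio of 0.04. The other genes of largest ratio in these 3 lists, Kat5 (-0.65), Cdkn1b (0.52), Cdkn2d (0.22), Ccne2 (0.96), Rrm2 (-0.87) and Tyms (0.84), had intervals that included no difference.

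Lists of other stress programmes were counted in the same way, beside the same 8.55% and 6.16% of all genes. Of 16 genes of ATF4 and the integrated stress response, 0 were called higher and 2 lower, with a median of -0.17 (0.20 over all genes tested). Those 2 were Trib3, with 0 UMIs in Col10a1/Mmp13 nuclei against 22 in other stromal nuclei, and Slc7a11, with 1 UMI against 31, so both rest on counts at or below the floor of 3 UMIs. Psat1 (-0.70, -2.78 to 0.57) and Vldlr (0.51, 0.04 to 0.93) were under 2-fold. Of 9 hypoxia genes with enough UMIs, Hk2, a hexokinase, was called higher at 404 CPM against 193 CPM, and the median was 0.03. Ndrg1, a stress-responsive gene, was at 21.7 CPM against 42.6 CPM (-0.93, -1.80 to -0.25) and Pgk1, a glycolytic enzyme, at 48.8 CPM against 83.1 CPM (-0.75, -1.30 to -0.28), both under 2-fold, while Slc2a1, a glucose transporter, had a log2 ratio of 0.60 (0.03 to 1.10). Of 10 immediate early genes, which rise within minutes when tissue is dissociated, 0 were called in either direction and the median was 0.08. Ier3 (0.77, 0.35 to 1.15), Dusp1 (0.44, 0.17 to 0.69), Fosb (0.37, 0.24 to 0.50) and Junb (0.34, 0.19 to 0.49) had intervals above 0, that of Ier3 overlapping those of Cdkn1a and Mdm2, and their part in those results was not tested.

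Accessibility was compared over each gene and the 3 kb before it. Col10a1/Mmp13 nuclei and other stromal nuclei had close ATAC signals at these genes, and 0 of 10 reached 2-fold, where 3.83% of 24234 gene windows were called higher and 2.24% lower. Trp53 had 94.2 CPM of ATAC counts against 99.4, a log2 ratio of -0.08 (-0.19 to 0.03), Cdkn1a 74.4 against 76.8 (-0.04, -0.17 to 0.08), Mdm2 43.2 against 40.9 (0.08, -0.09 to 0.24), Ccng1 37.1 against 38.3 (-0.04, -0.22 to 0.13) and Trp53inp1 58.7 against 57.4 (0.03, -0.11 to 0.17). At these 5 genes the upper ends of the ATAC intervals lay below the lower ends of the RNA intervals, which were 0.53, 0.64, 0.45, 0.98 and 1.27 in the same order. Zmat3 had the largest ATAC ratio, 36.0 against 27.1 (0.41, 0.23 to 0.59), with an RNA log2 ratio of 0.11. Among single peaks, 9 of the 62 within 10 kb of the 10 genes were called higher (14.5%) and 1 lower (1.61%), beside 14.6% and 10.9% of all 194544 peaks tested.

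**Figure D5:**
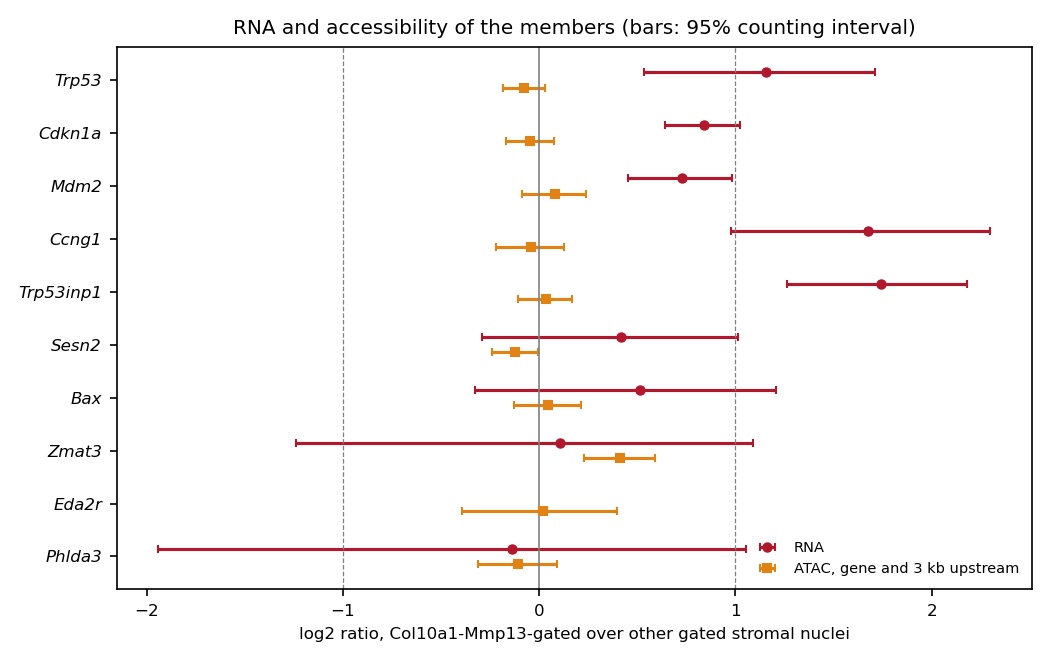
Log2 ratio of RNA and of ATAC signal over the gene and 3 kb upstream for the 10 genes (Eda2r for ATAC alone), in Col10a1/Mmp13 nuclei over other gated stromal nuclei, with 95% counting intervals. RNA ratios reached 1.74 (Trp53inp1), while the ATAC ratios lay between -0.12 (Sesn2) and 0.41 (Zmat3).

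Between classes the ATAC signal and the RNA were not ordered alike. At Cdkn1a erythroid nuclei had 37.9 CPM of ATAC counts, the lowest of the blood classes, but granulocyte nuclei had 87.4, close to osteoblast nuclei (80.8), with Cdkn1a RNA at 66.7 CPM against 184 CPM. At Trp53inp1 erythroid nuclei had 114 CPM of ATAC counts and B-lymphoid nuclei 90.7, against 58.7 in Col10a1/Mmp13 nuclei.

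To show where sequences like the element bound by p53 lie at these genes, the mm10 sequence was searched for the p53 response element, which is made of 2 half-sites of 10 bases, with a spacer of 0 to 13 bases between them. It matched in 532 of 203502 peaks (0.261%) and in none of the 62 peaks within 10 kb of the genes. A looser search (both half-sites adjacent, the 4-base core of each intact and at most 2 bases off, added after the first result was seen) matched in 1272 peaks (0.625%) and in 2 of the 62. In the window from 3 kb before to 1 kb after the start of 21938 protein-coding genes, the strict search matched in 1.08% of genes and in 2 of the 10, and the looser one in 2.37% and in 2 of the 10. The 4 matches below are shown since they lie at the genes whose RNA is described above. Each is given on the strand of its gene. For Mdm2 and Ccng1 this is the minus strand of mm10, and for Trp53inp1 and Cdkn1a the plus strand. The 4 flanking bases on each side are in lower case, and capitals mark the matched element. The strict match at Cdkn1a (chr17:29090906-29090937, -54 bases from the start, in no peak) overlaps the looser one shown and is longer because of its spacer, so it is given by position alone.
Mdm2, -6988 bases from the start, in a peak, 1 base off, chr10:117717736-117717755: gaggAAACATGTACAAACATGTCCaagc
Ccng1, intron, 366 bases after the start, in a peak, 1 base off, chr11:40754936-40754955: cggaACGCAAGCCCGGGCTAGTCTgcgc
Trp53inp1, -1309 bases from the start, in no peak, spacer of 1 base, chr4:11155112-11155132: aggaAAACATGTCCAGGACTAGCCTggac
Cdkn1a, -38 bases from the start, in no peak, 1 base off, chr17:29090928-29090947: tcagGAACATGTCTTGACATGTTCagcc

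The peak around the Mdm2 match had 15.7 CPM of ATAC counts in Col10a1/Mmp13 nuclei, against 11.7 in other stromal and 11.5 in blood nuclei, a log2 ratio over stromal nuclei of 0.43 (0.15 to 0.70), under 2-fold. The peak around the Ccng1 match, which covers the start of the gene, had 37.1 in Col10a1/Mmp13 nuclei, against 38.3 in other stromal and 46.2 in blood nuclei. The Trp53inp1 match lay 785 bases and the Cdkn1a match 2319 bases from the nearest peak. Starts here are the 5' ends of the genes in GENCODE M21, and other promoters of a gene were not considered. At Cdkn1a no peak covers that start, and the nearest peak (chr17:29093266-29094152) lies downstream of it, inside the gene. Such a match is a description of the letters in the window and does not show binding.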

How the data were processed

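The deposited counts name Cell Ranger ARC 2.0.0, and the labels give mm10. The authors' methods name Cell Ranger and describe, for their single-cell data, an mm10 reference to which tdTomato-WPRE sequences were added. The deposited table holds raw counts, not normalised, over 728634 barcodes: UMIs for 32293 genes and ATAC counts for 203545 peaks. The separately deposited peak list was not used. Whether counting used introns or strand is not given in the sources used here.

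Counts were summed per class in Python 3.11.15 (numpy 2.4.6, scipy 1.17.1, pandas 2.3.3, scanpy 1.11.5) and divided by non-mt UMIs. Ratios had 0.5 counts added and an exact conditional binomial 95% interval. With 1 library of each kind no test was made, and intervals cover counting error only, since animals were pooled. A nucleus passed a marker gate when a list's summed share reached 3 times free RNA with at least 4 UMIs of at least 2 genes. The Col10a1/Mmp13 gate came first, and a nucleus past several others took the one with the most UMIs if these were at least 2 times those of the next. These thresholds were set after the data were seen, and the 10 genes, the lists and the markers (135 genes) were chosen with earlier results of these data known. Named genes were the 10 genes, up to 4 genes per list with the largest absolute log2 ratio and at least 20 UMIs, and the 4 most alike of Cdkn1a, Mdm2 and Ccng1. Btg2, Apaf1, Tnfrsf10b and Mdm4 were added after their values were seen. Scripts were tested on simulated data. Scrublet's automatic threshold marked 0 doublets, so no nucleus was removed, and removal of the 174 highest scores was an alternative. Sequences came from the mm10 genome and GENCODE M21, in which all 10 gene identifiers were found. Alternatives covered the denominator, mt- limits, the gate, depth, doublets, free RNA and the class compared.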

Additional observations from a re-analysis of the deposited data

How the results depend on the processing

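The number of the 10 genes called higher in Col10a1/Mmp13 nuclei over other stromal nuclei was 3, and it moved by over 1.5 times under 6 of 24 alternatives. It was 1 with the gate at 0.1%, 5 at 0.6% and 7 at 1% (chosen after seeing the data). With at least 3 UMIs of each gate gene it was 5, against osteoblast nuclei 6, and when called at 1.5-fold 5. The share of all genes called higher was 19.3% at 1% and 26.9% against osteoblast nuclei. This share was not computed at 0.1%, 0.6%, 3 UMIs or 1.5-fold, so those counts have no background. Over 22 alternatives to each log2 ratio, Ccng1 was called higher in 20 (0.75 to 2.50), Trp53inp1 in 20 (0.97 to 2.60), Trp53 in 16 (0.29 to 1.75), Cdkn1a in 7 (0.33 to 1.67) and Mdm2 in 6 (0.18 to 1.68), and none of these 5 changed direction. Trp53 was at 0.29 with an mt- limit of 10% and at 0.81 with one of 20%, and the cause was not tested. With the 174 highest doublet scores removed 3 genes were called, as with free RNA subtracted. Thinning to 500 UMIs moved all 10 shares of nuclei, by construction, and left 3 genes with enough UMIs, of which 2 were called. Within Col10a1/Mmp13 nuclei, 1 of the mt- ratios moved outside its interval, under thinning. With ATAC counts of the peak at the start alone, 2 of 9 ratios moved outside their intervals, Trp53inp1 at -0.15 and Zmat3 at 0.16, and Cdkn1a has no peak there. No paired analysis was possible because there was 1 library. Depth limits Zmat3, Eda2r and Phlda3 most, with 8, 1 and 5 UMIs in the gate.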

Other observations

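An osteocyte-gated nucleus with 11449 non-mt UMIs held 105 UMIs of Mdm2, with 18 of Cdkn1a, 12 of Btg2 and 218 of Dmp1, the osteocyte matrix protein, but none of Trp53, Ccng1 or Trp53inp1. Its mt- share was 7.94%. The next richest nuclei in Mdm2 held 23 (reticular-gated) and 22 UMIs (Col10a1/Mmp13). The 2 deepest of the nuclei richest in Cdkn1a were tenocyte- or synovial-gated, with 68625 and 58831 non-mt UMIs and 28 and 24 UMIs of Cdkn1a.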
